A study of Mus musculus with 2 samples.

Results

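Mir204 and Mir211 are the 2 mouse hairpin genes that make miR-204 and miR-211, a pair of microRNAs named here for their link to the choroid plexus. They were chosen by gene symbol, through the identifiers in the deposited count tables, and make up 2 of the 1973 microRNA genes listed. The data are microRNA sequencing of hindbrain from B6NCrl mouse embryos at embryonic day 16.5, with male and female embryos pooled and no treatment or mutation in the labels. The labels give 1 group with 2 biological replicates, and each replicate is its own pool of embryos. Replicate 2 came from 37 embryos, and the number behind replicate 1 is not given in the sources used here.

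The choroid plexus is a secretory epithelium with cilia that makes cerebrospinal fluid, and in the hindbrain it hangs into the fourth ventricle. miR-204 is known from this epithelium and from the pigmented epithelium of the eye, where it helps to maintain epithelial identity, and it is made from an intron of Trpm3, which encodes a cation channel abundant in both. miR-211 is made from an intron of Trpm1, which encodes a related channel of melanocytes and retinal bipolar cells, and is best known from the pigment cell lineage. A microRNA pairs with its targets mainly through its seed, bases 2 to 8 counted from the 5′ end, so microRNAs with the same seed can act on overlapping sets of messenger RNAs.

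The mature sequences are shown first because the pair is almost identical over the arm that gives it its seed. They are written 5′ to 3′ with the seed in capitals, and both genes were found in the RefSeq table for GRCm38.p6.
miR-204-5p: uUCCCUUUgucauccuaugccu
miR-211-5p: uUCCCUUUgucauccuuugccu
miR-204-3p: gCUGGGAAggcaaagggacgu
miR-211-3p: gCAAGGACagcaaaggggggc

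The 5p arms were identical at 21 of 22 bases, and the single difference was A17U, with miR-204-5p as the reference and positions counted from the 5′ end. The first 16 bases were therefore shared, seed included. The 3p arms matched at 14 of 21 bases and had different seeds. Of 1738 mature mouse sequences in the same table, 3 carried the seed UCCCUUU: miR-204-5p, miR-211-5p and mmu-miR-7670-3p, whose gene Mir7670 had 0 counts in both libraries. A count of 0 allows up to 3 counts, or 0.589 CPM in replicate 1 and 0.673 CPM in replicate 2, where CPM expresses a gene's reads per 1000000 reads counted on the sense strand of microRNA genes. The shared first 16 bases occurred in 2 of 1005 hairpins, those of Mir204 and Mir211. A read of the 5p arm that stops before base 17 would fit both loci, and reads that fit several places are deposited only as a total per library, 34.5% and 35.1% of all reads in replicates 1 and 2.

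The hairpins are printed with both mature arms in capitals, to show where the arms sit in each precursor.
Mir204: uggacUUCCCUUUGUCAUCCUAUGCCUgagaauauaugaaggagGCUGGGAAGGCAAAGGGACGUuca
Mir211: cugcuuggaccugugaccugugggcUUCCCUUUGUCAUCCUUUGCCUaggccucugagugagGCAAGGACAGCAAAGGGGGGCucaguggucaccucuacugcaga

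Both genes lie in introns of their hosts, on the same strand as the host. Mir204 (ENSMUSG00000065507.2) is a hairpin of 68 bases on the plus strand at chr19:22750605-22750672 (mm10), in intron 6 of a principal Trpm3 transcript with 26 exons. No annotated exon of Trpm3 overlapped it, and the nearest exon upstream ended 759 bases before it. Mir211 (ENSMUSG00000065585.1) is a hairpin of 106 bases on the plus strand at chr7:64205806-64205911, in intron 6 of a principal Trpm1 transcript with 27 exons, 1212 bases after the nearest exon. The hosts differ in size: Trpm3 spans 856 kb and Trpm1 116 kb, and the hairpins begin 612 kb and 52.0 kb from the annotated start of the host. Host transcripts were not measured in these small RNA libraries.

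Mir204 was abundant in the hindbrain and Mir211 was near the lower end of what was detected. The libraries held 5097205 and 4460836 sense counts on microRNA genes in replicates 1 and 2, and 385 genes reached at least 10 counts in both, which is called detected here. Both members passed this limit. The 2 Hox-cluster genes Mir10a and Mir10b, whose neighbours pattern the hindbrain, stood at 60429 ± 3641 CPM and 33002 ± 7054 CPM (SD, n = 2).

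Mir204 had 15832 counts in replicate 1 and 18156 in replicate 2. That is 3106 CPM (exact binomial 95% interval 3058 to 3155) in replicate 1 and 4070 CPM (4011 to 4130) in replicate 2, so replicate 2 was higher and the intervals did not overlap. The mean of 3588 ± 682 CPM (SD, n = 2) placed Mir204 at rank 51 of all genes, at rank 57 in replicate 1 and 45 in replicate 2. The median detected gene stood at 150 CPM. Among 189 detected microRNAs that lie within a protein-coding gene on its strand, Mir204 ranked 29. Reads that fit several places are left out of these counts. Genes that share a mature sequence with another locus can therefore be undercounted, and the ranks and the median hold for assigned reads only.

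Mir211 had 32 counts in replicate 1 and 24 in replicate 2. That is 6.28 CPM (exact binomial 95% interval 4.29 to 8.86) in replicate 1 and 5.38 CPM (3.45 to 8.01) in replicate 2, and these intervals overlapped widely. With a mean of 5.83 ± 0.635 CPM (SD, n = 2), Mir211 ranked 333 overall and 151 of the 189 microRNAs within protein-coding genes. Of the 385 detected genes 332 were higher than Mir211 and 52 were lower. Neither Mir204 nor Mir211 had a count on the opposite strand in either library. All intervals cover counting error only and leave out the spread between pools. Without molecular identifiers several reads can stem from 1 molecule, so the intervals can be too narrow even for that error.

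**Figure D1:**
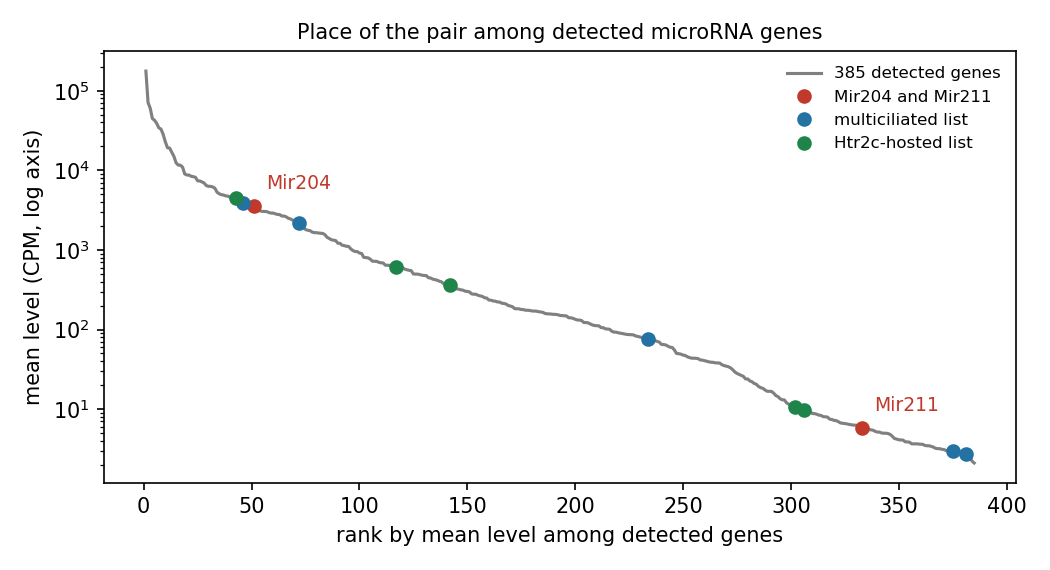
Mean level of the 385 detected microRNA genes in CPM (log axis) against their rank, with Mir204 and Mir211 in red, the multiciliated list in blue and the Htr2c-hosted list in green. Mir204 sits at rank 51 on the upper slope and Mir211 at rank 333 near the lower end.

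Mir204 far exceeded Mir211 within each library. There were 495 Mir204 counts for each Mir211 count in replicate 1 and 757 in replicate 2, a log2 ratio of 8.95 and 9.56 with a mean of 9.26 ± 0.43 (SD, n = 2). A ratio was called different when both libraries gave it the same sign and its mean exceeded 2 SD. This rule stands in for an exact sign-flip test, whose smallest possible p with 2 libraries is 0.5. The Mir204 to Mir211 ratio passed this rule, as did 91.1% of the ratios of Mir204 to each other detected gene, so passing says little beyond the size of the ratio. Mir211 supplied 0.202% of the pair's counts in replicate 1 (exact Clopper-Pearson 95% interval 0.138% to 0.285%) and 0.132% in replicate 2 (0.0846% to 0.196%). The odds ratio of replicate 2 over replicate 1 was 0.654 (95% interval 0.368 to 1.15; two-sided Fisher's exact test, p = 0.14), so a difference in this share was not detectable at this depth. The tables hold counts per gene and no read sequences, so which base the reads assigned to Mir211 carried at position 17 was not tested.

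The pair was set beside 2 groups of microRNAs with a link to the choroid plexus. The first is the list of multiciliated cells (Mir34b, Mir34c, Mir449a, Mir449b and Mir449c), which the ependyma lining the ventricles also makes. The second is the set within Htr2c, which encodes a serotonin receptor abundant in choroid plexus epithelium and also present in neurons. All 5 counted microRNAs of the Htr2c introns, Mir448, Mir764, Mir1264, Mir1298 and Mir1912, were detected, while Mir1911 was not analysed here. These are microRNA genes of whole tissue, and no messenger RNA marker of the choroid plexus was measured, so the counts do not say which cells made them. Fewer cells of a type and less RNA per cell cannot be told apart.

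Mir204 stood among the highest members of both groups. Mir1298, in an Htr2c intron on chromosome X (147064905 to 147065002), had 20675 and 21727 counts, or 4463 ± 576 CPM (SD, n = 2). Mir449a, in the host gene Cdc20b, had 20811 and 16301 counts, or 3869 ± 303 CPM. Mir204 came next at 3588 CPM, followed by Mir34c with 10355 and 10358 counts, or 2177 ± 205 CPM. Mir1298 was above Mir204 in both libraries and Mir34c below it in both, whereas Mir449a changed sides.

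The log2 ratio of Mir204 over Mir449a was -0.39 in replicate 1 and 0.16 in replicate 2, a mean of -0.12 ± 0.39 (SD, n = 2), within 2 SD. Mir1298 and Mir449a, the neighbours at the top of the order, also differed by less than 2 SD, with log2 ratios of -0.01 and 0.41. Mir204 lay above Mir34c by 0.71 ± 0.14 on the log2 scale and below Mir1298 by a log2 ratio of -0.32 ± 0.09 (SD, n = 2), both past 2 SD. In all, Mir204 differed by this rule from 4 of 5 members of the multiciliated list and from 5 of 5 of the Htr2c-hosted list, against the background of 91.1%.

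Mir448 reached 609 ± 80.7 CPM, Mir1264 364 ± 41.0 CPM and Mir34b 75.0 ± 1.81 CPM (SD, n = 2). These 3 genes fell between Mir34c and the lowest group, each past 2 SD from its neighbours in the order. The lowest group held Mir764 at 10.7 ± 0.616 CPM, Mir1912 at 9.78 ± 1.07 CPM, Mir211, Mir449b at 2.94 ± 0.277 CPM and Mir449c at 2.73 ± 0.257 CPM. Mir764 and Mir1912 did not differ by more than 2 SD. Mir1912 exceeded Mir211 by 0.75 ± 0.32 and Mir211 exceeded Mir449b by 0.99 ± 0.29 on the log2 scale (SD, n = 2), past 2 SD in both cases, as were 89.8% of the ratios of Mir211 to each other detected gene. Mir449b had 14 counts and Mir449c 13 in each library, so their order rests on 1 read, and the counting interval of Mir211 (3.45 to 8.01 CPM in replicate 2) overlapped those of Mir449b (1.72 to 5.27 CPM) and Mir1912 (7.74 to 14.0 CPM). The intervals of Mir211 and these 2 genes overlapped in replicate 1 as well.

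**Figure D2:**
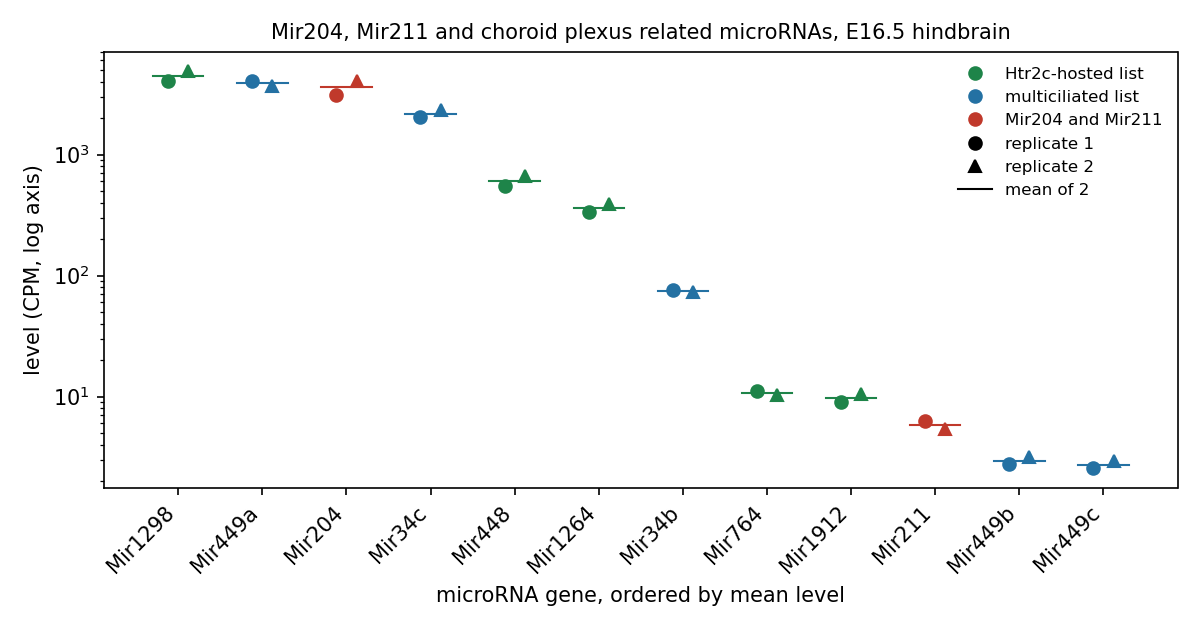
Level in CPM (log axis) of Mir204, Mir211 and the 10 counted members of the multiciliated and Htr2c-hosted lists, ordered by mean. Circles are replicate 1, triangles replicate 2 and bars the mean of both; Mir204 lies with Mir1298 and Mir449a at the top, and Mir211 among the genes near or under 10 CPM.

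Mir204 differed between the libraries by more than counting noise, and was not called by a test that assumes a further spread between libraries. After TMM scaling, which corrects library totals for a few dominant genes, Mir204 was 1.37-fold higher in replicate 2 (log2 ratio 0.46, exact binomial 95% interval 0.42 to 0.49; exact binomial test with Benjamini-Hochberg adjustment, adjusted p = 5.46e-184). This test called 46.4% of 401 genes with at least 20 counts in all, 21.9% higher in replicate 2 and 24.4% higher in replicate 1, so a call alone does not set Mir204 apart. With plain library totals the split was 15.5% and 32.7%. edgeR's exact test needs a spread between libraries, the biological coefficient of variation (BCV). At a BCV set to 0.1 it gave an adjusted p of 0.416 for Mir204 and called 1.75% of the genes. When the BCV was estimated from both libraries, at 16.3%, the adjusted p was 1 and 0.748% of the genes were called. With 1 library on each side that estimate is made from the very differences under test, so a call lost there carries little weight, and the BCV of 0.1 is an assumption. Both tests compare the libraries, not conditions. Each embryo pool has 1 library, so the pool and the making of its library cannot be told apart.

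The size of the Mir204 difference was set beside genes of similar level, a choice made after its value was seen. Among 96 tested genes with a mean of at least 1000 CPM, the median size of the log2 ratio was 0.15, and 2 genes, Mir433 and Mir487b of the imprinted Dlk1-Dio3 region, had larger ratios than Mir204. With plain library totals the Mir204 ratio was 0.39 and took place 8 by size in place of 3. Mir211 had a log2 ratio of -0.16 with an interval of -0.98 to 0.65 (exact binomial test, adjusted p = 0.862). That interval includes the ratio of Mir204, so the libraries could not be shown to differ in Mir211, nor the members to differ in their change.

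Of the Htr2c-hosted list, 3 of 5 members were higher in replicate 2 by the exact binomial test and 0 were lower, against 21.9% and 24.4% of all genes. Their log2 ratios were 0.34 for Mir448, 0.33 for Mir1298 and 0.30 for Mir1264, and the median of the list was 0.30 against 0.00 over all tested genes. Mir764 (-0.05, interval -0.64 to 0.53) and Mir1912 (0.29, interval -0.33 to 0.91) did not pass. edgeR's exact test at either BCV called 0 of the 5. The members that passed had 1710 or more counts in each library, whereas Mir764 and Mir1912 had 46 to 57. As hairpins of 1 host, the 5 genes are not independent. The count was not planned in advance, and a list of 5 cannot be set apart from the shares over all genes by it. In the multiciliated list the median was 0.26, the value of Mir449b and Mir449c, which had 14 and 13 counts in each library. Their intervals were wide, -0.92 to 1.44 for Mir449b and -0.97 to 1.48 for Mir449c. Mir34c was higher in replicate 2 (log2 ratio 0.26) and Mir449a higher in replicate 1 (log2 ratio -0.09). The other 3 members, with Mir34b at 0.02, did not pass the threshold. The multiciliated list summed to 6196 and 6056 CPM in replicates 1 and 2, and the Htr2c-hosted list to 4964 and 5951 CPM. Together the 2 lists summed to 11160 and 12007 CPM.

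**Figure D3:**
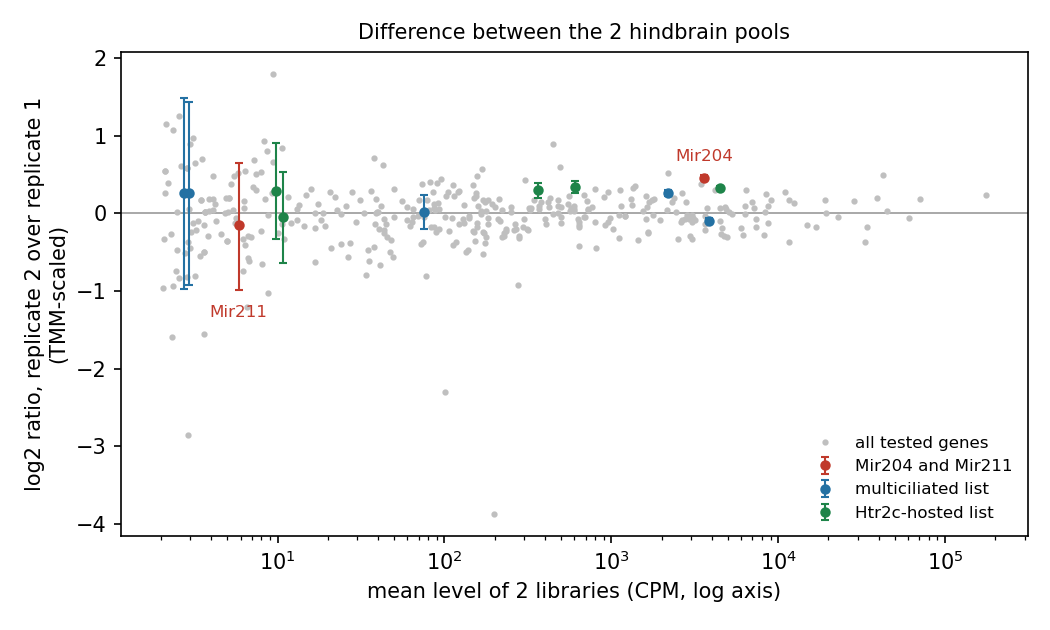
Log2 ratio of replicate 2 over replicate 1 after TMM scaling against mean level in CPM (log axis) for 401 tested genes (grey), with exact binomial 95% intervals for Mir204 and Mir211 (red), the multiciliated list (blue) and the Htr2c-hosted list (green). Mir204 lies at 0.46 with a narrow interval, and the interval of Mir211 spans -0.98 to 0.65.

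Markers of other cell types that a hindbrain dissection can hold were counted beside the Mir204 difference, by the same exact binomial test. Over all genes this test called 21.9% higher in replicate 2 and 24.4% higher in replicate 1, or 15.5% and 32.7% with plain library totals, and lists of 2 to 5 tested genes cannot be set apart from these shares by their counts. The vascular list had 3 of 3 members higher in replicate 2, but 1 of 3 with plain totals, and its summed level was 34724 and 36467 CPM in replicates 1 and 2. Both tested muscle genes were higher in replicate 1 (2 of 2 under either scaling), and the list summed to 375 and 24.9 CPM. Nearly all of this sum was Mir206 (370 and 24.2 CPM). The other, Mir133b, had 26 and 3 counts and was not detected by the limit used here. The muscle members Mir1a-1, Mir133a-1 and Mir133a-2 had 0 assigned counts in both libraries, but each shares its mature sequence with another locus. Reads of these 3 microRNAs can therefore be among the multimapping reads, and the 0 does not measure their level. Members higher in replicate 1 numbered 1 of 3 in the mesenchymal list (2 with plain totals; 478 and 275 CPM), 2 of 5 in the epithelial list (3 with plain totals; 186 and 111 CPM) and 2 of 3 in the miR-183 cluster of sensory cells (3 with plain totals; 3995 and 3416 CPM), and these 3 lists had 0 higher in replicate 2 under either scaling. The erythroid list had 1 of 3 in each direction, or 0 higher in replicate 2 and 1 in replicate 1 with plain totals, at 216 and 206 CPM. All these sums leave out multimapping reads, so they can fall short of the level. In the mesenchymal list, Mir199a-1 had 0 and 1 assigned counts in replicates 1 and 2, and Mir199a-2 had 42 and 23. edgeR's exact test at a BCV of 0.1 called 2 muscle members, 1 mesenchymal and 1 epithelial member, and 0 of the vascular, erythroid and sensory lists. The part of these cell types in the Mir204 difference was not tested.

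The genes whose levels were nearest to those of each member were listed by distance in log2(CPM + 1) over the 2 libraries. For Mir204 they were Mir434 (distance 0.10; 3070 and 3802 CPM), Mir139 (0.29), Mir181a-1 (0.35), Mir361 (0.35) and Mir130b (0.42). In CPM, Mir434 and Mir181a-1 had the larger value in replicate 2, as Mir204 did, while Mir361 and Mir130b had the larger value in replicate 1 and Mir139 was level at 3731 and 3730.2 CPM. Mir181a-1 shares its mature 5p sequence with a copy elsewhere, so its level is uncertain. For Mir211 they were Mir6958 (distance 0.08), Mir1947 (0.10), Mir181b-1 (0.15), Mir7083 (0.16) and Mir294 (0.19), all with 23 to 36 counts in each library. Mir181b-1 also has a copy elsewhere, Mir181b-2 (3820 and 2392 counts), so its level is uncertain in the same way. With 2 libraries of 1 tissue, this likeness is one of level and says nothing of a shared pattern.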

How the data were processed

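The deposited table of each library holds raw counts for 1973 microRNA genes. Per the text deposited with the samples, the authors used mm10 and annotation M4. No aligner or counter is given in the sources used here. Reads that fit several places and other summary lines stayed out of the totals.

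The first single-strand column, which held 97.6% of assigned reads in each library, was used as the sense count. Identifiers were matched without version to GENCODE M21 (1894 of 1973 matched), which also gave hosts and introns. Sequences are RefSeq's (GRCm38.p6). CPM was not divided by length, as 1 read covers a whole small RNA. The replicates are labelled biological, and p-values compare the 2 libraries only.

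With 1 library on each side, edgeR's quasi-likelihood fit has no residual spread, so exact binomial tests on TMM-scaled totals were used over all genes with at least 20 summed counts. The test was also run on simulated counting noise (395 genes) with plain library totals. There it recovered 68.2% of true 1.25-fold changes, 90.6% at 2-fold and 98.4% at 4-fold, and called 7 of 203 genes left unchanged. The simulation had no TMM scaling and no further spread between libraries, so it does not give the rate of false calls in the real libraries. The text names the members, the multiciliated and Htr2c-hosted lists, the 5 genes nearest in level to each member, and other markers beside a result. Members and lists were chosen with earlier results of these data known. Tests ran in scipy 1.17.1 (Python 3.11.15, with pandas 2.3.3 and numpy 2.4.6) and in edgeR 4.0.16 and DESeq2 1.42.0 (R 4.3.3). Plots were drawn with matplotlib 3.10.9.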

Additional observations from a re-analysis of the deposited data

How the results depend on the processing

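Of 63 recomputed values for 14 results, 54 were taken as unchanged. These kept their direction and their side of the threshold or, for values with no test, moved by less than the spread between replicates. Counts of genes among them stayed the same. With 2 libraries, leaving 1 out always moves a mean by less than this spread. Those alternatives could fail only by a change of sign, so they add little to the 54. Unstranded counts could not change the ratio or share within the pair either, as neither member had a count on the opposite strand. The same holds for the ratios of Mir204 to Mir449a, Mir449b, Mir449c and Mir1298, which had no such count either. Without the most abundant gene in the total, Mir204 stood at 4366 CPM and Mir211 at 7.07 CPM, and with multimapping reads added to it at 2043 and 3.32 CPM. The log2 difference of Mir204 between the libraries stayed at 0.46 under edgeR's exact test but lost its call at both BCVs (adjusted p of 0.416 and 1, against adjusted p-values from 4.96e-186 to 1.97e-135 in the other alternatives), and the count of Htr2c-hosted microRNAs higher in replicate 2 went from 3 to 0 at both BCVs, of which the estimated BCV is made from the differences under test. The Htr2c-hosted count and the ratio to Mir1298 were not planned in advance, and their alternatives were chosen after seeing the data. Leaving out 1 library, Mir204 ranged from 3106 to 4070 CPM, Mir211 from 5.38 to 6.28 CPM, and the log2 ratio of Mir204 over Mir449a from -0.39 to 0.16, the single sign change. No paired analysis was possible because the series has 1 group. Depth limits Mir211, whose 24 to 32 counts leave wide intervals, and whether they hold misread miR-204-5p reads was not tested.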
